A study of Bos taurus with 24 samples.

Results

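Transcripts of the basement membrane were followed in bovine adipose cell cultures that received palmitic acid (PA), oleic acid (OA) or a mixture of them (MIX), or neither (CON). The list named 10 genes: COL4A1, COL4A2, COL18A1, LAMA2, LAMA4, LAMB1, LAMC1, NID1, NID2 and HSPG2. They were chosen by name, with earlier results of the same libraries known, and which measured values weighed in that choice is not recorded. For this reason no difference below is support that is independent of the choice of genes. The names matched 9 of the 27570 genes in the tables, and LAMA2, a laminin alpha chain, was not analysed here. The cells were pre-adipocytes from the subcutaneous fat of 6 Holstein cows, and each library came from the culture of 1 cow. PA, OA and MIX were given at 300 µM, and MIX held PA and OA at 60% and 40%. Day 7 libraries came from cows 1, 2 and 3 and day 4 libraries from cows 4, 5 and 6, with 1 library per cow and treatment, 24 in all. Day 4 cultures received the fatty acids during adipogenic induction, and day 7 cultures received them for 7 days, starting 48 h after induction. Every culture, CON included, was kept in serum-containing medium with 5 µM troglitazone, an agonist of the nuclear receptor PPARG, 5 µg/mL insulin and 100 µM ascorbic acid, a cofactor of collagen hydroxylation. Isobutylmethylxanthine (0.5 mM) and dexamethasone (1 µM) were present for the first 48 h of induction. The days used different cows, so day and cow cannot be told apart, and levels of the 2 days were not tested against each other.

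The basement membrane is a thin sheet of matrix that lies directly against cells, and adipocytes are each wrapped in one. It is built from a network of laminins, which are trimers of an alpha, a beta and a gamma chain, and from a network of type IV collagen. Nidogens and the heparan sulfate proteoglycan perlecan (HSPG2) join the networks. Type IV collagen of most tissues is a trimer of the COL4A1 and COL4A2 chains, and adipocytes and their precursors are known to make it. COL18A1 encodes type XVIII collagen, a basement membrane proteoglycan whose end fragment is endostatin. Laminin alpha 4 (LAMA4) is the alpha chain typical of the membranes around fat cells and vessels. PA is a saturated and OA a monounsaturated long-chain fatty acid, and the comparisons ask whether the kind of fatty acid changes the cells' transcripts.

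Sequencing gave 14118798 to 24008811 reads assigned to genes per day 7 library and 13509548 to 17071654 per day 4 library. The 9 genes took 0.52% to 1.02% of these reads at day 7 and 0.522% to 0.659% at day 4. Levels are given as FPKM, which is corrected for gene length and library size. The cells are labelled adipocytes, but defining adipocyte transcripts were low. ADIPOQ (adiponectin) had 3 reads in all 24 libraries. PPARG averaged 0.23 FPKM at day 7 and 3.07 FPKM at day 4, and the fatty acid carrier FABP4 averaged 0.405 and 30.3 FPKM at those days. The highest of the 12 adipocyte markers was RBP4, a retinol carrier, at 69.7 and 44.8 FPKM, and ADIRF averaged 2.64 and 6.8 FPKM. Fibroblast and preadipocyte markers were mixed, and 10 of the 14 listed reached a mean of 1 FPKM at each day. VIM, an intermediate filament protein, was at 3276 FPKM at day 7 and 2855 FPKM at day 4. The proteoglycan DCN was at 940.4 and 2684 FPKM. By contrast, DLK1 had no read, and CD34 was at 0.365 FPKM at day 7 and 0.0197 FPKM at day 4. DPP4 was at 0.0206 and 0.0015 FPKM, and PI16 at 0.012 and 0.0355 FPKM. The 12 endothelial markers summed to 1.56 to 3.47 FPKM per library at day 7 and to 1.62 to 5.08 FPKM at day 4. FLT1, VWF and TEK, the highest over all 24 libraries, averaged 0.342 to 0.666 FPKM at day 7 and 0.631 to 1.92 FPKM at day 4, and ERG averaged 0.648 and 0.0999 FPKM. The genes said to lead a list are likewise those highest over all 24 libraries. The endothelial cadherin CDH5 had no read at day 4, and EMCN and ROBO4 had none at either day. Summed levels per library were 4.94 to 27.3 FPKM at day 7 and 12.2 to 17.4 FPKM at day 4 for 10 macrophage and leukocyte markers, led by CD14, CD68 and CD163. For 8 epithelial and mesothelial markers, led by MSLN, UPK3B and KRT19, they were 1.78 to 14.4 FPKM and 2.54 to 4.49 FPKM. The 8 skeletal muscle markers, led by DES, MYF5 and CKM, summed to at most 0.812 FPKM at day 7 and 3.87 FPKM at day 4. The 8 Schwann cell markers summed to 41.2 to 88.3 FPKM at day 7 and 47.9 to 82.7 FPKM at day 4 through PMP22 and S100B, which many cells express, while NGFR averaged 0.0168 and 0.0654 FPKM.

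Type IV collagen in these cultures was carried by COL4A1 and COL4A2. COL4A1 averaged 268 ± 166 FPKM over the cows of day 7 and 125 ± 108 FPKM over those of day 4 (mean of cow means ± SD, n = 3 cows each). COL4A2 averaged 129 ± 71.3 FPKM at day 7 and 66.8 ± 65.9 FPKM at day 4 on the same scale. The other type IV chains, COL4A3, COL4A4, COL4A5 and COL4A6, which form the collagens of specialised membranes such as the kidney filter, averaged 0.0032 to 0.0329 FPKM at day 7 and at most 0.103 FPKM at day 4. Of the laminin beta chains, LAMB1 averaged 137 FPKM at day 7 and 76 FPKM at day 4, and LAMB2 averaged 84.1 and 98.4 FPKM at those days. LAMC1, the common gamma chain, averaged 61 FPKM at day 7 and 60.3 FPKM at day 4. Among the alpha chains measured, LAMA4 was at 62.7 FPKM at day 7 and 59.9 FPKM at day 4, and LAMA5, another widely used alpha chain, at 2.99 and 1.18 FPKM. The FPKM ratio of LAMA4 to LAMA5 was 8.04 to 91.6 in single libraries of day 7 and 16.9 to 156 in those of day 4. The epithelial beta chain LAMB3 averaged 1.15 FPKM at day 7 and 0.167 FPKM at day 4.

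**Figure D1:**
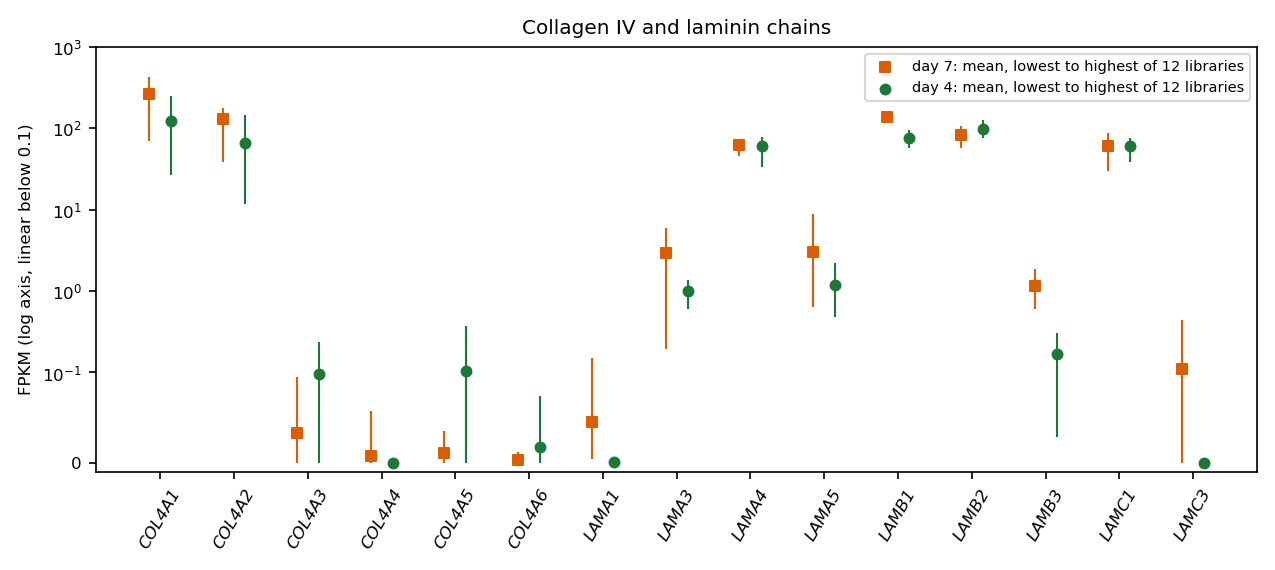
Levels in FPKM of collagen IV and laminin chain genes at day 7 (squares) and day 4 (circles); points are means and lines run from the lowest to the highest of 12 libraries per day. The vertical axis is logarithmic above 0.1 FPKM. COL4A1, COL4A2, LAMA4, LAMB1, LAMB2 and LAMC1 stand above the other chains at both days.

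NID2 was the most abundant of the 9 genes, at 325 ± 120 FPKM at day 7 and 305 ± 42.7 FPKM at day 4 (SD over 3 cow means). Its relative NID1, which like NID2 links laminin to collagen IV, averaged 132 ± 35.2 FPKM at day 7 and 129 ± 38.8 FPKM at day 4. HSPG2 averaged 185 ± 59.2 FPKM at day 7 and 96.3 ± 27 FPKM at day 4. COL18A1 was the lowest, at 6.2 ± 5.04 FPKM at day 7 and 3.57 ± 4.57 FPKM at day 4. By mean level the order at day 7 was NID2, COL4A1, HSPG2, LAMB1, NID1, COL4A2, LAMA4, LAMC1 and COL18A1. At day 4 the order was NID2, NID1, COL4A1, HSPG2, LAMB1, COL4A2, LAMC1, LAMA4 and COL18A1. Most neighbours in these orders differed by less than the larger of their SDs over cows. The exceptions were LAMC1 over COL18A1 at day 7, and NID2 over NID1 and LAMA4 over COL18A1 at day 4. Among all genes with any value above 0, 19847 at day 7 and 19514 at day 4, NID2 ranked 189 and 190 by mean FPKM. COL18A1 ranked 7541 at day 7 and 9836 at day 4.

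The genes lie on 8 chromosomes in the coordinates of the deposited tables, whose genome build is not named. COL4A1 (ENSBTAG00000012849) spans bases 84863917 to 84995777 of chromosome 12 on the minus strand. COL4A2 (ENSBTAG00000025210) spans bases 85040120 to 85153241 on the plus strand, 44342 bases from COL4A1, and is transcribed away from it. COL18A1 (ENSBTAG00000023907) spans bases 145202138 to 145296595 of chromosome 1 on the plus strand. LAMA4 is on chromosome 9, LAMB1 on chromosome 4, LAMC1 on chromosome 16, NID1 on chromosome 28, NID2 on chromosome 10 and HSPG2 on chromosome 2. The only annotated gene that overlaps any of them is the microRNA bta-mir-2418 inside LAMB1, on the same strand.

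The collagen IV genes varied far more between cows than between treatments. COL4A1 measured 91.5, 374 and 339 FPKM in OA cultures of cows 1, 2 and 3 at day 7. PA cultures of these cows had 69.8, 388 and 315 FPKM, MIX cultures 86.4, 429 and 346 FPKM, and CON cultures 71.8, 382 and 319 FPKM. Cow 1 was below the others under every treatment. At day 4, COL4A1 measured 31.7, 118 and 248 FPKM in OA cultures of cows 4, 5 and 6. PA cultures had 27.4, 105 and 231 FPKM, MIX cultures 26.6, 97.9 and 249.5 FPKM, and CON cultures 28, 92.2 and 239.7 FPKM. The cows did not overlap at day 4, with cow 4 lowest and cow 6 highest under every treatment. The highest cow mean was 4.92 times the lowest at day 7 and 8.52 times at day 4, whereas the highest treatment mean was 1.11 times the lowest at each day.

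COL4A2 followed the same cows. It measured 56.9, 179 and 166 FPKM in OA cultures of cows 1, 2 and 3 at day 7. PA cultures had 38.7, 177 and 155 FPKM, MIX cultures 51, 180.1 and 173 FPKM, and CON cultures 42.7, 174 and 157 FPKM. At day 4, OA cultures of cows 4, 5 and 6 had 14.9, 53 and 146 FPKM. PA cultures had 11.9, 49.2 and 132 FPKM, MIX cultures 12.2, 46 and 148 FPKM, and CON cultures 12.4, 41.2 and 136 FPKM. Cows again separated without overlap at day 4. The range of cow means was 3.75-fold at day 7 and 10.9-fold at day 4. Over these ranges the FPKM ratio of COL4A1 to COL4A2 stayed between 1.61 and 2.38 in single libraries of day 7 and between 1.69 and 2.31 in those of day 4.

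**Figure D2:**
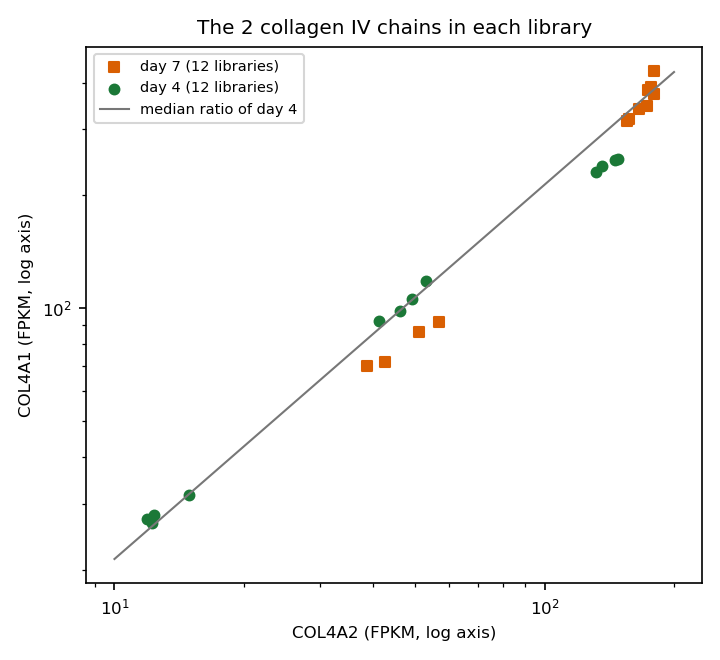
COL4A1 against COL4A2 in FPKM on logarithmic axes, 1 point per library; squares are day 7 and circles day 4, and the line marks the median ratio of day 4, 2.13. Libraries of a cow lie together, and the ratio of the chains runs from 1.61 to 2.38 over all 24 libraries.

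The laminin, nidogen and perlecan genes were more even across cows. Their highest cow mean was 1.21 (LAMB1) to 2.38 (LAMC1) times the lowest at day 7 and 1.32 (NID2) to 1.96 (LAMA4) times at day 4. COL18A1 differed 8.79-fold between cows at day 7 and 19-fold at day 4. Treatment means differed at most 1.15-fold for every member except COL18A1, where the range was 2.34-fold at day 7 and 1.26-fold at day 4. In an additive split of log2(FPKM + 1), cow took 98.9% of the variation of COL4A1 at day 7 and 99.4% at day 4. The median over all genes tested was 78% at day 7 and 86.6% at day 4. LAMB1 was the least cow-bound member at day 7, with 79% for cow and 9.12% for treatment, and NID2 at day 4, with 80.8% for cow and 8.17% for treatment. COL18A1 at day 7 had the largest treatment share of the members, 10.7%, against a median of 6.55% over all genes. Partner chains were less tightly matched than the collagens, since LAMB1 to LAMC1 ranged from 1.49 to 4.03 in libraries of day 7 and from 0.865 to 1.81 in those of day 4. The NID2 to NID1 ratio ranged from 1.6 to 4.53 at day 7 and from 1.94 to 3.3 at day 4.

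**Figure D3:**
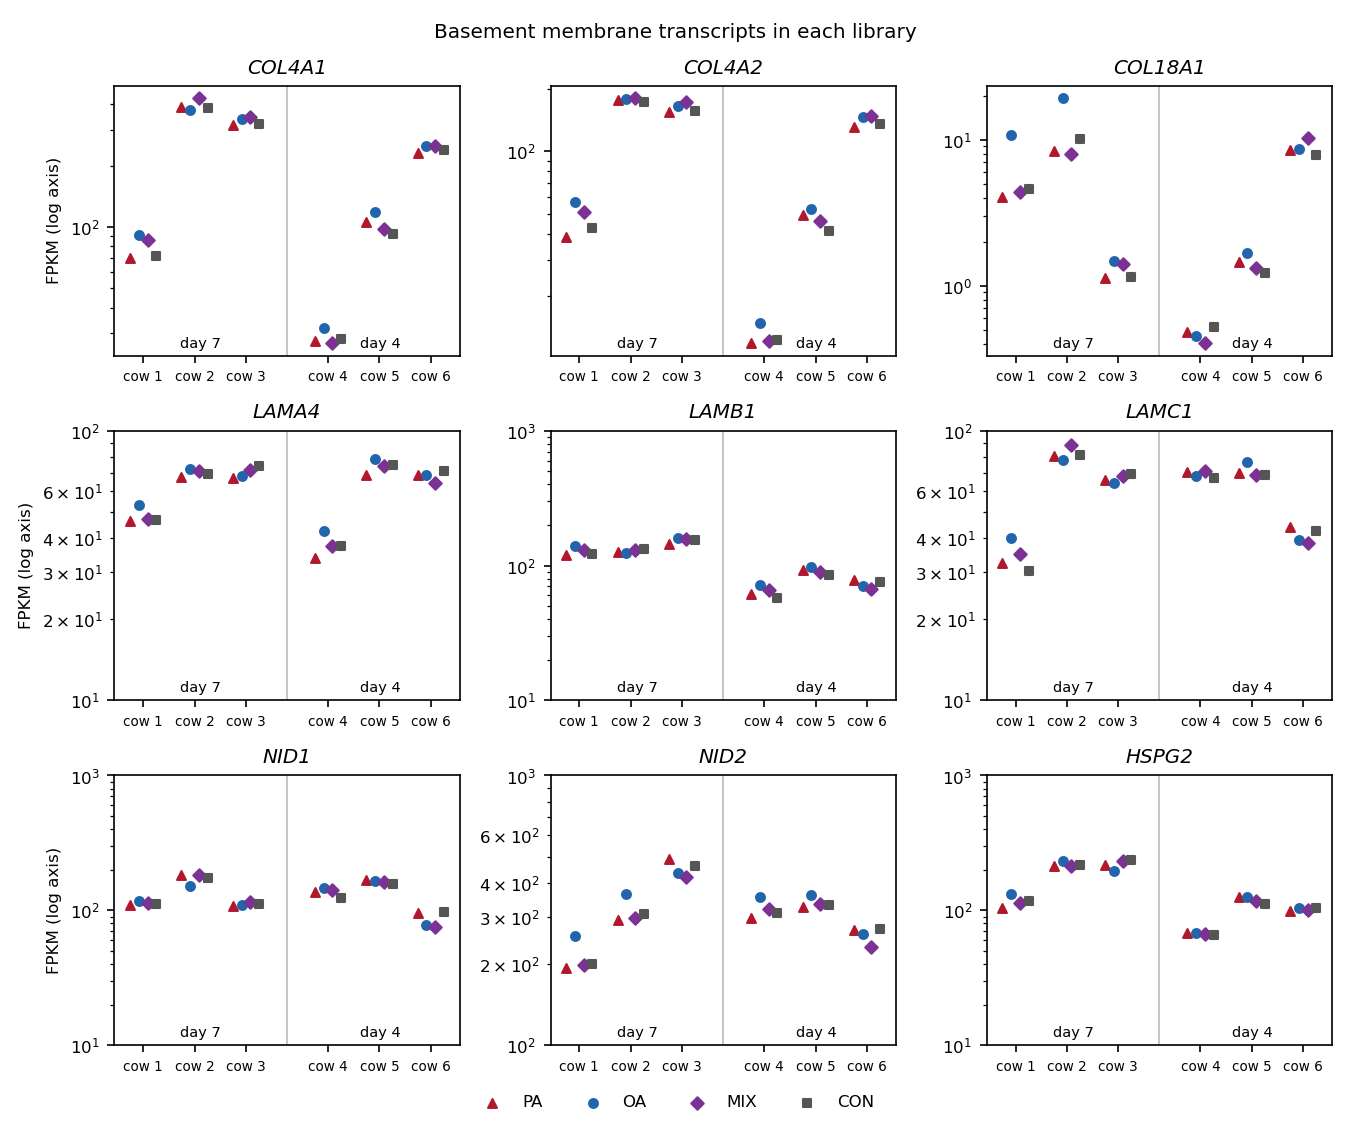
Level in FPKM, on logarithmic axes, of the 9 matched genes in every library, arranged by cow with day 7 left of day 4; symbols are PA (triangles), OA (circles), MIX (diamonds) and CON (squares). Symbols of a cow lie close together, and the steps between cows are widest for COL4A1, COL4A2 and COL18A1.

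The 4 treatments give 6 comparisons per day. The day 7 values were compared with limma on log2(FPKM + 1) and the day 4 counts with the edgeR quasi-likelihood method, with p-values adjusted over all genes by the Benjamini-Hochberg method. A gene counted as called at an adjusted p under 0.05. None of the 9 genes was called in any of the 12 comparisons, and none in the 3 tests of whether a difference from CON changed between days. The background was also empty, since 0% of the 12615 genes tested at day 7, of the 13580 tested at day 4 and of the 12132 tested across days were called. Without the cow term the SE of the log2 difference of OA from CON was 1.04 for COL4A1 at day 4, against 0.07 with it, so a difference of the size seen could not pass there. With cow as a block, 0.0736% of all genes were called for OA against CON at day 4 and 0.221% for OA against PA at day 4. No other comparison called any gene, and again none of the 9 was called. At an unadjusted p under 0.05, 0 of the 135 member tests passed without the cow term, against 0.296% of tests over all genes. With the cow term 16 of 135 passed, against 5.45% of tests over all genes, and these tests share libraries. DESeq2 at day 4 called no member with or without the cow term.

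Under OA at day 7, COL18A1 showed the widest difference of the set. It measured 10.8, 19.2 and 1.49 FPKM in OA cultures of cows 1, 2 and 3, and 4.56, 10.1 and 1.14 FPKM in their CON cultures. PA cultures had 4.04, 8.29 and 1.13 FPKM, and MIX cultures 4.37, 7.93 and 1.42 FPKM. OA was the highest treatment in each of the 3 cows, by 2.36-fold, 1.91-fold and 1.3-fold over CON, while the groups of 3 cultures overlapped. Cow 3 had the smallest step and the fewest reads, 127 in the OA library and 105 in the CON library, against 2076 and 992 in cow 2. With the cow term, the difference of OA from CON was 0.72 ± 0.20 (log2(FPKM + 1), SE; limma adjusted p = 0.426). OA exceeded PA by 0.86 ± 0.20 (limma adjusted p = 0.289), with a 95% interval from 0.42 to 1.29. The difference of MIX, which is 40% OA, from OA was -0.78 ± 0.20 (limma adjusted p = 0.334).

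On the reads recovered from FPKM, edgeR with the cow term called COL18A1 at day 7 for OA against PA, at a log2 difference of 1.14 ± 0.15 (SE; adjusted p = 0.0185). In that fit 0.0586% of all genes were called. It also called MIX against OA, at -1.04 ± 0.15 (SE; edgeR adjusted p = 0.0274), where 0.0146% of genes were called. The same fit called 0% of genes for OA against CON. The difference of PA from CON in COL18A1 at day 7 was -0.13 with the cow term (limma 95% interval -0.57 to 0.30). At day 4, COL18A1 measured 0.454, 1.68 and 8.65 FPKM in OA cultures of cows 4, 5 and 6, and 0.52, 1.22 and 7.8 FPKM in CON cultures. OA was above CON in 2 of these 3 cows, and the edgeR interval of the log2 difference ran from -0.12 to 0.47. The test of whether the difference of OA from CON changed between days gave 0.61 ± 0.24 with the cow term (limma adjusted p = 0.880). The endothelial marker sums at day 7 were 1.92 to 3.47 FPKM in OA cultures and 1.85 to 2.53 FPKM in CON cultures. Their part in the COL18A1 values was not tested. In bulk RNA, a change in the share of a cell type and a change in RNA per cell cannot be told apart.

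**Figure D4:**
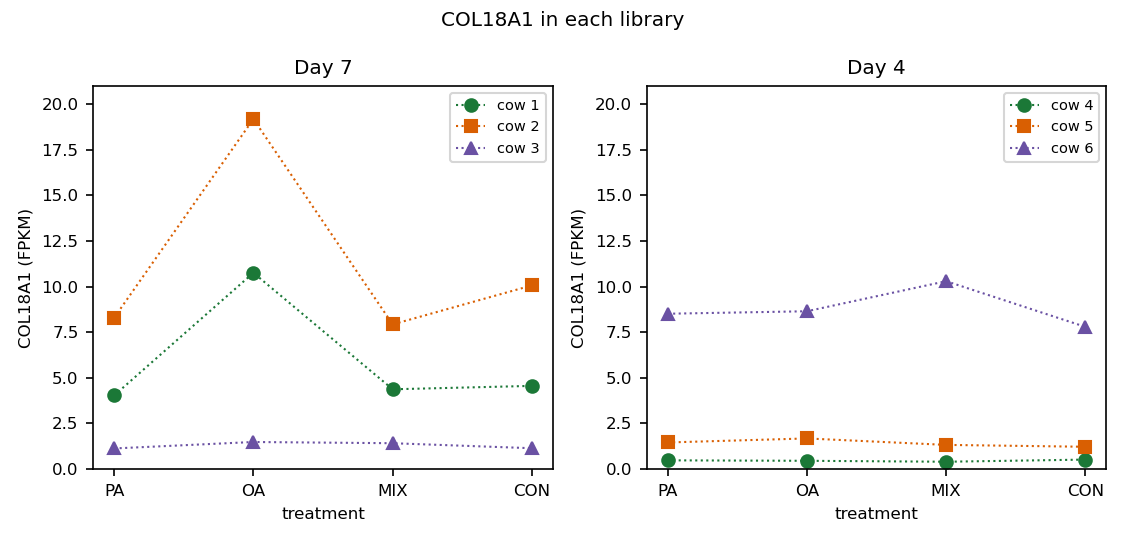
COL18A1 in FPKM in every library at day 7 (left) and day 4 (right), by treatment; each symbol and dotted line is 1 cow, and the dotted lines only join cultures of a cow. At day 7 OA is the highest culture of each cow, from 1.49 FPKM in cow 3 to 19.2 FPKM in cow 2.

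OA against CON at day 4 had both collagen IV chains higher in every cow, and neither passed the threshold. COL4A1 was higher with OA by 1.13-fold, 1.28-fold and 1.04-fold in cows 4, 5 and 6, and COL4A2 by 1.2-fold, 1.29-fold and 1.07-fold. With the cow term the log2 differences were 0.18 ± 0.07 for COL4A1 (edgeR adjusted p = 0.738) and 0.23 ± 0.07 for COL4A2 (edgeR adjusted p = 0.484). COL4A1, COL4A2 and HSPG2 were the 3 members higher in 3 of 3 cows, against 14.9% of all genes tested. For HSPG2 the step in cow 6 was 1.001-fold. In cow 6, LAMA4, LAMB1, LAMC1, NID1 and NID2 were lower with OA than in CON, while in cows 4 and 5 they were higher. NID2, for example, measured 356, 362 and 259 FPKM in OA cultures of cows 4, 5 and 6, against 308, 331 and 270 FPKM in CON cultures. Without cow 6, edgeR with the cow term called COL4A1 at 0.26 ± 0.06 (adjusted p = 0.0436) and COL4A2 at 0.31 ± 0.07 (adjusted p = 0.0197). In that fit 0.543% of all genes were called. It rests on 2 cows and leaves out the cow with the smallest step in both genes. Each gene was called in only 1 of 12 alternative settings, and not with cow 4 or cow 5 left out. With all 3 cows, 8 of 9 members had a positive difference, with a median of 0.08 against -0.01 over all genes tested.

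Markers of pericytes and smooth muscle also leaned towards higher values with OA at day 4. Of the 14 listed, 13 were tested and 11 were higher with OA than with CON. Their median log2 difference was 0.21, against -0.01 over all genes tested. At day 7, 6 of 10 tested were higher with OA, with a median of 0.03 against 0.01 over all genes. TAGLN, ACTA2 and ACTG2 led the list, at 2266, 1146 and 634 FPKM at day 7 and 851, 148 and 164 FPKM at day 4. The summed level of all 14 was 472, 1167 and 2830 FPKM in OA cultures of cows 4, 5 and 6, and 364, 992 and 2476 FPKM in CON cultures. ACTG2, a smooth muscle actin, was called (0.59 ± 0.09, edgeR with the cow term, adjusted p = 0.00715), in the comparison where 0.0736% of all genes were. With cow 5 left out, 0 genes in all were called in that comparison. Limma with the cow term on the day 4 FPKM also called 0 genes. RGS5, a defining pericyte transcript, averaged 0.0132 FPKM at day 4, with 5 reads in all 24 libraries, and had no read at day 7. Other pericyte markers of the list were detected, with PDGFRB at 73.7 FPKM at day 7 and 92.1 FPKM at day 4. CSPG4 averaged 3.79 and 4.67 FPKM at those days, and NOTCH3 4.02 and 1.07 FPKM. KCNJ8 averaged 0.641 and 1.54 FPKM, ABCC9 0.787 and 1.64 FPKM, and MCAM 0.0901 and 1.18 FPKM. The part of these cells or genes in the collagen IV values was not tested.

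At day 7 the collagen IV pair was again somewhat higher with OA. COL4A2 exceeded CON in 3 of 3 cows, by 1.33-fold, 1.03-fold and 1.06-fold in cows 1, 2 and 3, and the difference with the cow term was 0.18 ± 0.09 (limma adjusted p = 0.579). COL4A1 was higher in 2 of 3 cows. COL4A2 and COL18A1 were the 2 members higher in every cow, against 17.0% of all genes. Cow 1 gave the widest step for every member except NID1 and HSPG2, with LAMC1 at 40 FPKM in its OA culture against 30.2 FPKM in its CON culture. The widest steps of those genes were downward with OA, 0.873-fold in cow 2 for NID1 and 0.832-fold in cow 3 for HSPG2. The median difference of the 9 members was 0.08, against 0.01 over all genes. Apart from COL18A1, the 95% intervals of the differences of OA from CON lay between -0.20 and 0.38 at day 7 and between -0.17 and 0.38 at day 4.

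**Figure D5:**
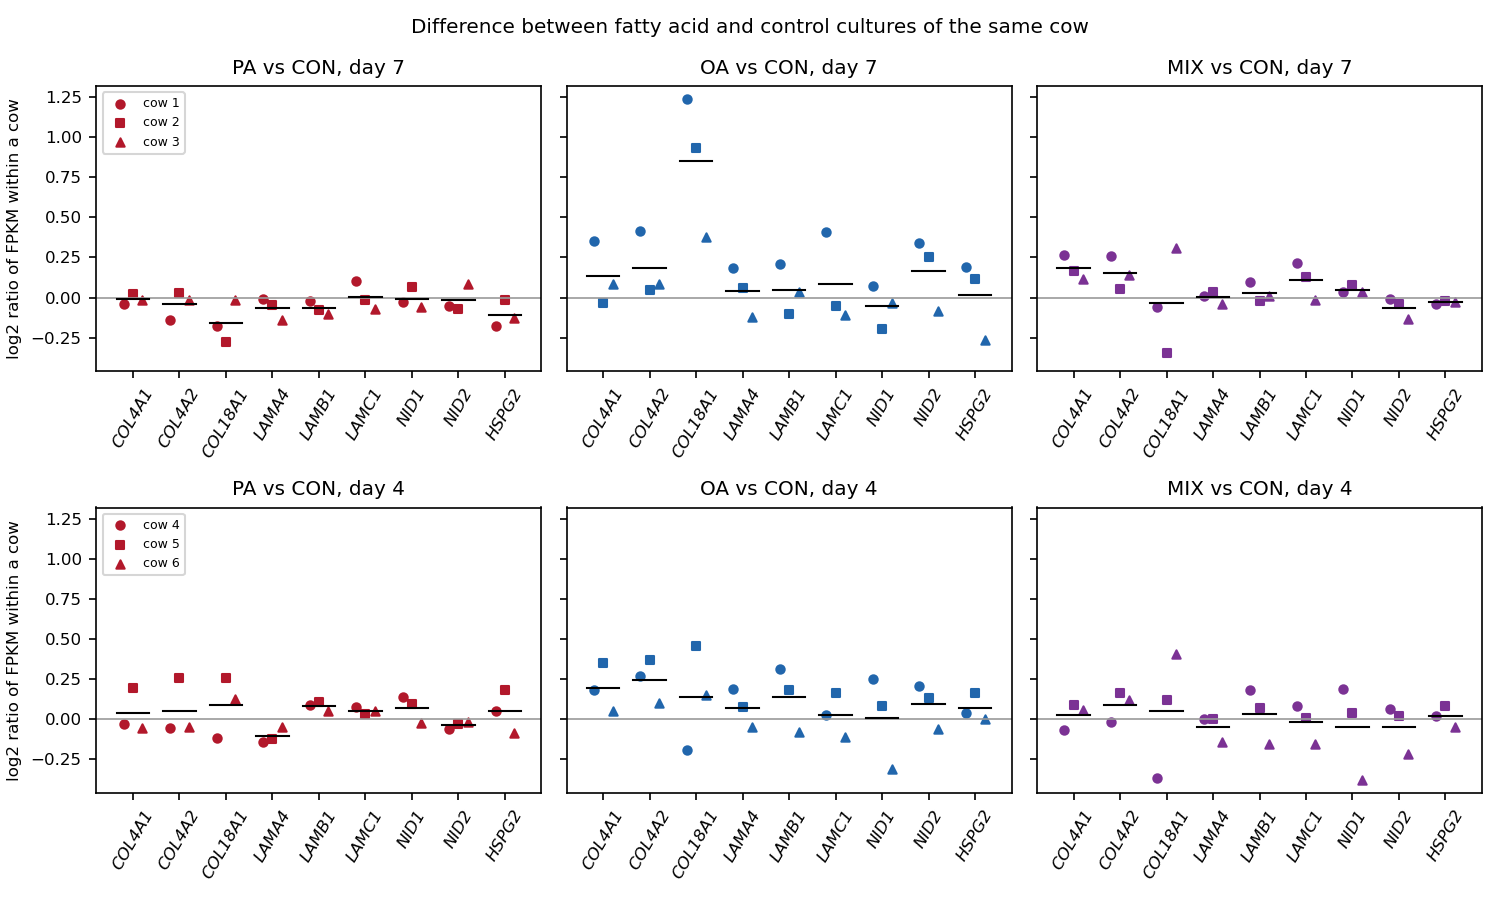
Log2 ratio of FPKM between a PA, OA or MIX culture and the CON culture of the same cow, for the 9 genes at day 7 (top) and day 4 (bottom); symbols are cows and black lines are means of 3 cows. COL18A1 under OA at day 7 lies highest, with ratios of 0.38 to 1.24, and cow 6 lies below 0 for the laminins and nidogens under OA at day 4.

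OA and PA were given at the same dose and differ in saturation and chain length. COL4A1, COL4A2 and LAMA4 were higher with OA than with PA in 3 of 3 cows at day 4, against 13.1% of all genes. LAMA4 measured 42.4, 78.4 and 68.7 FPKM in OA cultures of cows 4, 5 and 6, and 33.8, 68.3 and 68.6 FPKM in PA cultures, so cow 6 was nearly level. Its log2 difference was 0.17 ± 0.07 (edgeR with the cow term, adjusted p = 0.533). Without cow 6 the same edgeR fit gave 0.26 ± 0.06 (edgeR adjusted p = 0.0157), with 1.46% of all genes called. That fit rests on 2 cows and leaves out the cow that was nearly level. LAMA4 was called in only 1 of 12 alternative settings, and not with cow 4 or cow 5 left out. At day 7, COL4A2, COL18A1 and LAMA4 were higher with OA in every cow, against 16.5% of all genes. COL4A2 differed by 0.22 at day 7 (limma 95% interval 0.02 to 0.42, adjusted p = 0.389) and by 0.19 at day 4 (edgeR 95% interval 0.04 to 0.33, adjusted p = 0.542). For the 8 genes other than COL18A1 the intervals lay between -0.19 and 0.42 at day 7 and between -0.23 and 0.33 at day 4. Each interval rests on 3 cows.

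No member passed the threshold for PA against CON. At day 7, COL18A1, LAMA4, LAMB1 and HSPG2 were lower with PA in every cow, against 14.5% of all genes. HSPG2 measured 103, 213 and 216 FPKM in PA cultures of cows 1, 2 and 3, and 117, 215 and 236 FPKM in CON cultures. Its log2 difference with the cow term was -0.11 ± 0.09 (limma adjusted p = 0.998). At day 4, LAMB1 and LAMC1 were higher in every cow, against 12.5% of all genes, and LAMA4 and NID2 were lower in every cow, against 10.6%. The difference was -0.11 ± 0.07 for LAMA4 at day 4 (edgeR adjusted p = 1.00) and 0.11 ± 0.14 for COL18A1 (edgeR adjusted p = 1.00), and the other members lay closer to 0. Intervals for the 8 genes other than COL18A1 ran from -0.31 to 0.20 at day 7 and from -0.25 to 0.23 at day 4.

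No member passed the threshold for MIX against CON. At day 7, COL4A1, COL4A2 and NID1 were higher with MIX in every cow, against 12% of all genes, and NID2 and HSPG2 were lower, against 12.4%. COL4A1 exceeded CON by 1.2-fold, 1.12-fold and 1.08-fold in cows 1, 2 and 3 (0.18 ± 0.07 with the cow term, limma adjusted p = 1.00). At day 4, LAMA4 alone was lower in every cow, against 9.7% of all genes. Cows 4 and 5 were nearly level there, at 0.999-fold and 0.998-fold, and cow 6 was at 0.904-fold. MIX against PA at day 7 had 6 members higher in every cow, namely COL4A1, COL4A2, LAMA4, LAMB1, LAMC1 and NID1, against 14.6% of all genes. The largest of these differences was 0.19 ± 0.07 for COL4A1 (limma adjusted p = 1.00). MIX against OA at day 4 had 5 members lower in every cow, LAMA4, LAMB1, NID1, NID2 and HSPG2, against 13.4% of all genes. At day 7 the members lower with MIX than with OA in every cow were COL18A1 and NID2, against 15.4%. NID2 measured 199, 296 and 420 FPKM in MIX cultures of cows 1, 2 and 3, and 253, 364 and 434 FPKM in OA cultures (-0.23 ± 0.09 with the cow term, limma adjusted p = 0.444). The comparisons of a day share their libraries, so these counts are not separate observations.

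Levels of the other genes that build or handle the basement membrane ranged widely, and the highest of each list are given here. SPARC, a collagen IV binding protein, averaged 4286 FPKM at day 7 and 2780 FPKM at day 4, and SMOC2, a matricellular relative, 114 and 62.1 FPKM. Of 26 other basement membrane genes, 12 averaged 1 FPKM or more at day 7 and 10 at day 4. Of them, 14 were tested at day 7 and 16 at day 4, and 0 were called by limma or edgeR. Per comparison, 0 to 2 had an unadjusted p under 0.05 with the cow term. Over all genes, 5.45% of tests did so in all comparisons together. Single comparisons ran from 403 of 13580 genes (MIX against OA, day 4) to 1448 of 12615 (OA against PA, day 7). Among 14 receptors, ITGB1, the beta subunit of most laminin and collagen binding integrins, averaged 651 FPKM at day 7 and 342 FPKM at day 4. Its partner ITGA1, which binds collagen IV, averaged 67.9 and 14.5 FPKM, and DAG1, the laminin receptor dystroglycan, 52.8 and 23.2 FPKM. None of the 13 receptors tested was called, and 0 to 3 per comparison had such an unadjusted p, against the same shares over all genes. Among 21 genes of collagen processing and secretion, the collagen chaperone SERPINH1 averaged 720 FPKM at day 7 and 396 FPKM at day 4. The hydroxylase subunit P4HB averaged 510 and 312 FPKM, and the isomerase PPIB 415 and 281 FPKM. At day 7, 17 of 19 tested processing genes were higher with OA than with PA, with a median log2 difference of 0.14 against 0.01 over all genes. None was called, and 6 had an unadjusted limma p under 0.05 with the cow term. Over all genes, 1448 of the 12615 tested in that comparison had such a p. Of 18 interstitial matrix genes, 17 were higher in that comparison, with a median of 0.14, 0 called and 2 at such an unadjusted p. Their summed level was 17040, 29810 and 22040 FPKM in OA cultures of cows 1, 2 and 3. In PA cultures it was 12530, 32600 and 21020 FPKM, so in cow 2 the sum was lower with OA. Genes of a list share the same cultures and are not separate observations. The fibrillar collagen COL1A1 led this list, at 6494 FPKM at day 7 and 3671 FPKM at day 4. COL1A2, its partner chain, averaged 5063 FPKM at day 7 and 2302 FPKM at day 4.

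Of 17 proteases and inhibitors acting on basement membrane, 12 were tested at each day. MMP2, which cleaves collagen IV, averaged 4489 FPKM at day 7 and 5043 FPKM at day 4. Its inhibitor TIMP2 averaged 731 and 1018 FPKM, and the lysosomal protease CTSB 604 and 450 FPKM. TIMP3, a matrix-bound inhibitor of metalloproteinases, was higher with OA than with PA at day 4 (0.45 ± 0.09, edgeR with the cow term, adjusted p = 0.0202). At day 7 its difference was -0.22 ± 0.20 (limma adjusted p = 0.711), and the change between days was not tested for OA against PA. ACTG2 was also called for OA against PA at day 4 (0.43 ± 0.09, edgeR adjusted p = 0.0466). In the comparison of OA with PA at day 4, 0.221% of all genes were called. Of the listed genes, TIMP3 and ACTG2 were called with the cow term, and none was called without it. These calls depended on the cows used. With cow 5 left out, the fit with the cow term called 0 genes in all for OA against PA and for OA against CON at day 4.

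The pattern of the members over libraries was compared with 12132 genes by Pearson correlation of log2(FPKM + 1), taking for each gene the lower of the values of the 2 days. Each value covers 12 libraries that share 3 cows, so it mostly describes differences between cows. The 5 genes outside the set most like its mean were P3H4 (0.974), a partner of the collagen lysyl hydroxylation complex, TXNDC5 (0.973), a disulfide isomerase of the endoplasmic reticulum, HSP90AB1 (0.972), a cytosolic chaperone, ACTA2 (0.971), a smooth muscle actin, and DEGS1 (0.970), a ceramide desaturase. The members themselves did not share 1 pattern. COL4A1 (0.962), COL4A2 (0.959), LAMA4 (0.938) and HSPG2 (0.875) followed the mean at both days. Each member is part of that mean, and genes that vary most between cows weigh most in it, so these values are partly built in. COL18A1 correlated with the mean at 0.219 at day 7 and 0.833 at day 4, and LAMB1 at 0.288 and 0.621. LAMC1 correlated with the mean at 0.984 at day 7 and at -0.615 at day 4. NID1 had 0.696 and -0.414 at those days, and NID2 0.689 and -0.416. At day 4 cow 6 held the highest COL4A1 and the lowest LAMC1, NID1 and NID2 cow means.

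In the authors' deposited table of day 4, none of the 9 genes had an adjusted p under 0.05 in the 6 comparisons, and 0 genes in all passed, with 4 to 24 genes per comparison at an unadjusted p under 0.05. The authors' deposited table gives fold changes against CON as CON over treated, and lists COL4A1 at a log2 value of -0.146 for CON over OA.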

How the data were processed

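RNA-seq was available for 24 libraries of bovine subcutaneous adipose cultures: 4 treatments at 2 days, 3 cows per group. The authors deposited raw counts per gene for day 4, FPKM values for both days, and gene lengths. The tools that the submitters' processing notes name are featureCounts 1.5.0-p3, StringTie 1.3.3b and FastQC 0.11. No aligner, genome build or strand setting is given in the sources used here, so reads of antisense genes cannot be told apart. The authors' deposited day 4 table also holds log2 fold changes and p-values. The tables list 7243 genes without a name.

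Multiplying day 7 FPKM by gene length and library scale gave whole reads for 100% of values, within 0.01. The same step on day 4 FPKM returned the deposited counts for 100% of values. Total counts were 13509548 to 17071654 per day 4 library, and recovered reads 14118798 to 24008811 per day 7 library. Members had 1048 reads or more in every library, except COL18A1 with 33 to 2076, and each group held 3 cows.

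Day 4 counts were tested with edgeR 4.0.16 (TMM scaling, filterByExpr). Day 7 was tested with limma 3.58.1, with a trend, on log2(FPKM + 1), for genes at 1 FPKM or more in 3 libraries. Each fit used the 12 libraries of a day without a cow term, in R 4.3.3. Changes of a difference between days were fitted with limma on all 24 libraries. P-values were adjusted over all genes tested. Fold changes from log2(FPKM + 1) understate changes of low genes such as COL18A1. In tests on simulated data, fits of a day with the cow term called most of the changes put in. Fits without it called a minority or none, so a count of 0 without the cow term says little. The simulated spread between cultures of a cow was the same for all genes, and can differ from that of these data. Changes were put only into genes with ample reads in every library. The sizes put in are not stated here, and calling of differences as small as those of most members is not shown. Intervals are 95% t intervals of the fits with the cow term.

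Cow numbers pair the libraries, since cultures of a number come from the same cow. Deviations of same-cow libraries from their group means correlated at 0.772 to 0.864 at day 7 and 0.795 to 0.947 at day 4. Different cows of a day gave at most -0.31 and 0.134. Deviations from a group mean cancel out over its cows, so low or negative values between different cows are partly built in. Alternatives were cow as a replicate block, DESeq2 1.42.0, no filter on low values, a pseudocount of 0.1, edgeR on recovered reads, and leaving out each cow.

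The members and the other gene lists were chosen with earlier results of these data known. All members are named. From each other list the text names the 3 genes with the highest mean FPKM and any called gene. Other chain genes and defining markers were named after their values were seen. Sequences are not shown, and no genome was used.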

Additional observations from a re-analysis of the deposited data

Results flagged for a closer look

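LAMB1, the laminin beta 1 chain, differed from CON in opposite directions with PA at the 2 days. Its mean log2 FPKM ratio of PA over CON was -0.066 ± 0.0433 at day 7 and 0.0824 ± 0.0274 at day 4 (SD, n = 3 cows each). PA cultures were below CON in 3 of 3 cows at day 7, against 14.5% of all genes tested. They were above CON in 3 of 3 cows at day 4, against 12.5%. The flag came from a search of the 9 genes in PA, OA and MIX against CON, and the share of all genes with both traits was not computed. LAMB1 measured 120, 127 and 145 FPKM in PA cultures of cows 1, 2 and 3, against 122, 134 and 156 FPKM in CON cultures. At day 4 it measured 61.3, 92.1 and 78.1 FPKM in PA cultures of cows 4, 5 and 6, against 57.7, 85.5 and 75.2 FPKM in CON cultures. The difference between days was -0.15 ± 0.10 with cow as a block (limma adjusted p = 0.999), which did not pass the threshold. The days used different cows and different treatment periods, which cannot be told apart.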

How the results depend on the processing

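The count of called members was 0 in all 15 comparisons as tested, with and without the replicate block for cow. It moved to 2 (COL4A1 and COL4A2, OA against CON, day 4) and to 1 (LAMA4, OA against PA, day 4) without cow 6 in the fit with the replicate block. Over left-out cows these counts ranged from 0 to 2 and from 0 to 1, and each fit without a cow rests on 2 cows. It moved to 1 for OA against PA and to 1 for MIX against OA at day 7 (COL18A1 in both) with edgeR on recovered reads and the replicate block. The cause was not tested. The remaining 173 of 177 recomputed counts stayed at 0. Of 1593 recomputed log2 differences of members, 1440 kept their direction, 153 changed it without a call, and 5 were newly called. COL18A1 for OA against PA at day 7 ranged from 0.67 to 1.23 over 13 alternatives, with adjusted p from 0.0185 to 1. COL4A2 for OA against CON at day 4 ranged from 0.12 to 0.34 over 12 alternatives, with adjusted p from 0.0197 to 1. The low reads of COL18A1 in cow 3 limit what its ratio there can show.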
